A study of Arabidopsis thaliana with 24 samples.

Results

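The change in RNA levels after 1 h of polyethylene glycol (PEG) was compared between roots and shoots of Arabidopsis thaliana seedlings. For each gene the quantity described is the organ difference, the log2 change in root minus the log2 change in shoot. It contrasts 12 of the 24 libraries, 3 each of root and shoot in water for 1 h and of root and shoot in 30% PEG for 1 h. These were picked by their source names, with no use of measured values. The filter, scaling and spread of its test came from all 24, which include PEG for 2 and 3 h. The seedlings, of a line the labels name ulox without defining it, were 7 d old. They had grown on medium with 1% sucrose at 21 °C in cycles of 16 h light and 8 h dark. PEG was set to a water potential of -2.0 MPa. Organs were separated after treatment, each biological replicate being a pool of 30 to 50 seedlings, so the p-values measure the spread between such pools. No wild type was sampled and all groups carry the same genotype. The titles code the water libraries as time 0, whereas the source names, followed here, say 1 h. A tissue field that says root for all samples was left aside.

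PEG of high molecular weight lowers the water potential of the medium without entering cells, and plant cells exposed to it lose water. In the textbook pathway the hormone abscisic acid (ABA) binds receptors of the PYR/PYL family, which then inhibit clade A PP2C phosphatases and so release SnRK2 kinases. These activate ABF transcription factors, while DREB, ERF and NAC factors act partly outside the ABA pathway on genes for protective proteins such as dehydrins. Root and shoot both respond to water deficit, and they meet it from different starting conditions, the root being in contact with the medium.

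The organ labels were checked against genes of known location, as TMM-scaled CPM, counts scaled to a common library size, in replicates 1, 2 and 3. RBCS1A, a Rubisco small subunit, stood at 35981, 36088 and 37775 in shoot water and at 99.9, 269 and 114 in root water. CAB3, a chlorophyll-binding antenna protein, averaged 16025 ± 3312 in shoot water and 13.3 ± 5.21 in root water (SD, n = 3). CASP1, a scaffold protein of the endodermal Casparian strip, averaged 6.61 ± 1.77 and 451 ± 163. The library groups did not overlap for any of the 3 genes. Nuclear photosynthesis genes took 27.1 to 30.1% of the counts of a shoot library and 0.207 to 0.271% of those of a root library. Library totals were 1597302 to 3788822 counts in root and 1692884 to 4533469 in shoot. Root water replicate 2 stood apart. It had the fewest genes with a count, 11638, and the highest share of mitochondrial transcripts, 6.96%, against 3.80 and 5.24% in the other root water libraries. Its log2 levels correlated with those of the other root water libraries at Pearson r of 0.913 to 0.924. The mitochondrial share was 4.61, 3.99 and 2.41% in root PEG and 0.236 to 0.300% in shoot, and its part in the results was not tested. In whole organs, fewer cells of a type and less RNA per cell cannot be told apart.

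Of 10967 genes tested, 146 had an organ difference at an adjusted p under 0.05 (1.33% of the genes). In 120 (1.09%) the change in root lay below the change in shoot, and in 26 (0.237%) above it. All 146 differed by a log2 of at least 1, and the median organ difference over all genes was 0.07. Scaled by library totals in place of TMM, 44 lay below and 32 above, and the median over all genes was 0.518. Each organ was also tested on its own. In shoot 1138 of 9207 genes were called (12.4%), 663 higher (7.20%) and 475 lower (5.16%). In root 46 of 9751 were called (0.472%), 16 higher (0.164%) and 30 lower (0.308%). The replicate spread differed too, with a biological coefficient of variation of 34.2% in root and 17.2% in shoot. Leaving out 1 root library gave 1 to 43 calls in root, and 3 without root water replicate 2.

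The changes in shoot and root differed in 2 directions. For the 120 genes with the lower change in root, the median log2 change was 1.40 in shoot and -0.45 in root. In 96 of them the gene rose in shoot by the shoot test and was not called in root. AT2G44130 rose in both organs, AT3G07195 and CAF1b fell in root and were not called in shoot, and 16 were called in neither organ alone. The root level in water was above the shoot level in 87 of the 120, whereas over all genes tested this was so in 49.4%. The water levels enter the organ difference on which the 120 were chosen, so this contrast is partly built in. In PEG the root level was above the shoot level in 22 of the 120. For the 26 genes with the higher change in root, the medians were -1.64 in shoot and 1.02 in root, and 17 fell in shoot without a call in root. Their levels mirrored those of the 120, with root above shoot in 5 of the 26 in water and in 23 in PEG. This too is partly built in by the choice of genes. By the separate organ tests, no gene was called up in 1 organ and down in the other. The joint fit of all 24 libraries gave such opposite calls, among them AT2G39980, ERD7 and AT2G33830. For AT2G39980 the log2 was -1.58 in root (adjusted p = 0.0152) and 1.97 in shoot (adjusted p = 0.000259). ERD7 had -0.87 (0.0162) and 1.01 (0.00168), and AT2G33830 -1.23 (0.0234) and 1.11 (0.0237). The joint fit uses 1 spread per gene for both organs, with a biological coefficient of variation of 27.4%, below that of root alone. By the root test alone none of these genes was called, with adjusted p of 0.198 for AT2G39980, 0.0925 for ERD7 and 0.195 for AT2G33830. The counts above describe the differences rather than add to them, since the organ tests use the same libraries. A floor of 10 counts for the mean of the higher group, water or PEG, of each organ was met by 113 of the 120 genes, with organ differences of -1.004 to -4.20, and by 21 of the 26, with 1.34 to 5.17. A gene can meet this floor through the group where it is high.

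**Figure D1:**
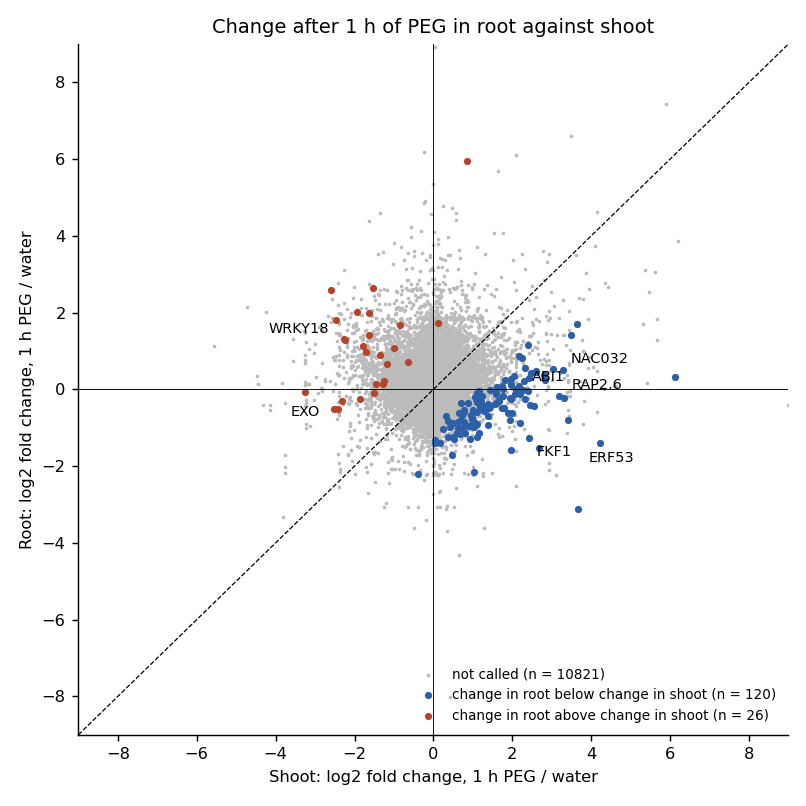
Each point is 1 of the 10967 genes, with its log2 change after 1 h of PEG in shoot on the horizontal axis and in root on the vertical axis, from the joint fit. Genes called for the organ difference are coloured, and the dashed line marks equal change. The 120 genes below the line lie mostly to the right of the vertical axis, with a median of 1.40 in shoot and -0.45 in root.

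Some genes below are grouped in lists, whose counts are to be read beside the shares of all genes called. For the organ difference these were 0.237% higher and 1.09% lower. They were 7.20% and 5.16% in shoot, and 0.164% and 0.308% in root. The lists were chosen with earlier results of these data known, so such counts are no independent support. ABA signalling genes gave a called difference at 1 clade A phosphatase and 1 receptor. ABI1, a clade A PP2C phosphatase that holds the pathway back, stood at 81.7, 92.6 and 97.5 CPM in shoot water and at 448, 387 and 472 in shoot PEG. In root it stood at 116, 155 and 90.9 in water and at 86.1, 109 and 163 in PEG. All 3 shoot PEG libraries lay above every other library, and the root groups overlapped. ABI1 rose in shoot (log2 2.19) and its organ difference was called (log2 -2.27, SE 0.32, adjusted p = 0.00036; -2.07 without root water replicate 2). Of the 7 clade A phosphatases tested, ABI1 was the only one called, with 4 risen in shoot and 0 called of 6 tested in root. Their median organ difference was -0.83 (-0.39 with the 12 libraries alone and -0.53 without root water replicate 1). PP2CA lay near the threshold (log2 -1.31, 95% interval -2.03 to -0.59, adjusted p = 0.0588).

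A pair of PP2C phosphatases outside clade A moved in the same direction. PP2CG1 rose in shoot from 30.4 ± 2.63 to 66.8 ± 5.55 CPM and went from 59.5 ± 8.14 to 47.7 ± 4.86 in root, where it was not called (log2 -1.44, SE 0.29, adjusted p = 0.011). AT3G05640 had 6.74 ± 1.55 and 18.2 ± 1.97 CPM in shoot, and 9.70 ± 0.697 and 6.97 ± 2.12 in root (log2 -1.89, SE 0.40, adjusted p = 0.0138). Both were picked as examples from the 146 after their values were seen. PYL1, an ABA receptor, went the other way. It stood at 26.7, 20.4 and 26.5 in shoot water, 13.9, 12.3 and 22.0 in shoot PEG, 27.4, 21.4 and 24.5 in root water and 47.1, 38.8 and 34.7 in root PEG. The root groups did not overlap, and in shoot PEG replicate 3 reached above water replicate 2. PYL1 was called for the organ difference only just (log2 1.34, SE 0.34, adjusted p = 0.0497), and the call was kept in 2 of 12 fits that left out 1 library, those without shoot PEG replicate 3 or root PEG replicate 3, with the highest adjusted p, 0.199, without shoot water 1 h replicate 1. Without root water replicate 2 it was not called (log2 1.26, adjusted p = 0.125). The other 7 receptors tested were not called, PYL4 at 0.24 (95% interval -0.58 to 1.06). PYL4 fell in shoot (log2 -0.98, adjusted p = 0.00113).

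NCED3, which makes the precursor of ABA, rose in shoot (log2 3.18, adjusted p = 4.11e-06) and in root went from 2.24, 1.30 and 1.06 to 5.89, 9.81 and 10.2 CPM (log2 2.36, adjusted p = 0.0837). The root groups of NCED3 did not overlap. Its organ difference was not called, at -0.94 with a 95% interval of -2.41 to 0.53. The 6 SnRK2 kinases and ABF factors tested had 0 calls and a median organ difference of -0.88 (-0.58 without root water replicate 3 or root PEG replicate 2).

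Among protective proteins, the organ difference was called for ERD7, a dehydration-induced protein. ERD7 stood at 104, 174 and 173 CPM in shoot water and 312, 292 and 302 in shoot PEG. In root it stood at 198, 193 and 180.2 in water and at 112, 82.2 and 119 in PEG. The shoot groups separated upward and the root groups downward, although ERD7 was called in shoot alone (log2 0.94 in shoot, -0.86 in root with adjusted p = 0.0925). Its organ difference was -1.88 (SE 0.28, adjusted p = 0.000569), and -1.87 without root water replicate 2. Of the dehydration genes, 13 of 20 tested in shoot rose and 0 of 16 tested in root were called. The organ difference lay below 0 in 16 of the 22 tested for it, with a median of -0.76, and 1 was called. LTI78 (RD29A), a hydrophilic stress protein, had 126, 193 and 163 CPM in shoot water and 765, 826 and 1012 in shoot PEG. In root LTI78 had 84.2, 53.9 and 84.0 in water and 58.9, 149.9 and 218 in PEG, and these groups overlapped while the shoot groups did not. Its 95% interval was -2.43 to -0.56, but the adjusted p was 0.0988, over the threshold. For COR15A and COR15B, near-identical genes whose reads may be shared, root counts were too low for a root test.

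HVA22D, a member of an ABA- and stress-induced membrane protein family, and LEA14, a late embryogenesis abundant protein, were called, both read off the 146 after their values were seen. HVA22D rose in shoot from 57.6, 49.7 and 85.3 to 194, 220.4 and 251 CPM, and had 139, 210.2 and 131 in root water and 107, 115 and 122 in root PEG. Neither its shoot groups, where PEG was higher, nor its root groups, where PEG was lower, overlapped (log2 -2.26, SE 0.32, adjusted p = 0.000405). LEA14 gave a call too (log2 -1.21, SE 0.31, adjusted p = 0.0474), with a call kept in 2 of the 12 leave-one-out fits, those without root water replicate 2 or root PEG replicate 3, and a highest adjusted p of 0.205 without shoot water 1 h replicate 1.

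Transcription factors of the DREB and CBF group differed at 4 of 13 members, all with the lower change in root. ERF53, a drought-induced activator, stood at 2.12, 3.41 and 2.76 CPM in shoot water and at 40.5, 47.6 and 64.2 in shoot PEG. In root it stood at 1.49, 1.30 and 1.06 in water and 1.55, 0 and 0 in PEG, from 10 and 5 counts in all. Every shoot PEG library lay above all others, while root levels were close to those of single counts (log2 -5.60, SE 0.90, adjusted p = 0.00123). Since the root arm of ERF53 holds so few counts, the size of its organ difference is loosely set, with a 95% interval of -7.45 to -3.76. Without root PEG replicate 1, the only root PEG library with an ERF53 count, the fitted value was -9.34, which is set against 0 counts and is no bound, and the call held in all 12 leave-one-out fits.

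CBF1, a regulator of cold and drought genes, had 9.73, 10.2 and 21.3 CPM in shoot water and 97.2, 70.7 and 127 in shoot PEG. In root CBF1 had 25.9, 22.1 and 19.1 in water and 22.6, 24.8 and 39.1 in PEG, and these groups overlapped while the shoot groups did not. Its organ difference was -2.44 (SE 0.45, adjusted p = 0.00528), or -2.47 without root water replicate 2. CBF2 and CBF3 (DREB1A), near-identical neighbours that may share reads with CBF1, had organ differences of -1.75 (adjusted p = 0.0595) and -1.76 (adjusted p = 0.26) and were not called. RAP2.4, an ERF-family factor, rose in shoot from 123 ± 14.1 to 552 ± 87.5, with 192 ± 34.4 and 352 ± 20.2 in root (log2 -1.28, SE 0.30, adjusted p = 0.0298). RAP2.1, a repressor of the DREB group, gave -1.49 (adjusted p = 0.0443). The calls of RAP2.4 and RAP2.1 were each kept in 2 of the 12 leave-one-out fits, with highest adjusted p of 0.109 without shoot PEG 1 h replicate 1 and 0.17 without shoot water 1 h replicate 1. The RAP2.4 call was kept without root water replicate 1 or root PEG replicate 3, and the RAP2.1 call without root water replicate 2 or root PEG replicate 1. Over the 13 members the median organ difference was -1.28, 9 rose in shoot and 0 of the 11 tested in root were called. The 4 calls of the list became 2 with library totals, with no filter, with a block by seedling pool, and without any 1 shoot library, root water replicate 3 or root PEG replicate 2, and 6 with DESeq2.

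Other factors of the AP2/ERF domain class were called outside that list, all picked here for their size or from the 146 after their values were seen. RAP2.6, of stress and wound responses, had 2.96, 2.04 and 3.55 CPM in shoot water and 30.5, 32.7 and 25.9 in shoot PEG. In root it had 90.6, 32.4 and 52.1 in water and 84.0, 22.4 and 43.8 in PEG. Root water replicate 2 was the lowest root water library and PEG replicate 2 the lowest root PEG library, and the root groups overlapped almost fully while the shoot groups lay apart (log2 -3.56, SE 0.61, adjusted p = 0.00241; -3.82 without root water replicate 2). CEJ1, a repressor of the DREB class, went from 29.97 ± 10.03 to 112 ± 41.5 in shoot and from 119 ± 24.1 to 77.9 ± 5.60 in root (log2 -2.50, SE 0.35, adjusted p = 0.00036). AT4G39780 gave -2.75 (adjusted p = 0.00531), RAP2.9 gave -1.71 (0.011) and DEAR2 gave -1.70 (0.0293). The RAP2.9 call was lost without root water replicate 1 (adjusted p = 0.0587), and that of DEAR2 was kept in 5 of the 12 leave-one-out fits, those without shoot PEG replicates 1 or 2, root water replicate 3 or root PEG replicates 1 or 3, with a highest adjusted p of 0.119 without shoot water 1 h replicate 1.

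Ethylene response factors split. ERF9, a repressor, stood at 10.2, 14.3 and 18.2 CPM in shoot water and 47.5, 45.8 and 93.2 in shoot PEG, and at 17.7 ± 5.53 and 17.2 ± 3.35 (SD, n = 3) in root (log2 -2.12, SE 0.47, adjusted p = 0.0209). ERF104 and AT5G51190 (ERF105), early ethylene and touch response factors, fell in shoot and had the higher change in root. AT5G51190 had 231, 190.1 and 211 in shoot water and 55.8, 44.0 and 28.1 in shoot PEG, against 303, 173 and 152 in root water and 159, 160.2 and 191 in root PEG, where the groups overlapped (log2 2.00, SE 0.46, adjusted p = 0.0286). ERF104 had 221 ± 13.2 and 78.0 ± 9.97 in shoot and 256 ± 47.3 and 240.02 ± 53.9 in root (log2 1.42, SE 0.36, adjusted p = 0.0474). None of the 3 calls was stable to the choice of libraries: of 12 leave-one-out fits, 7 kept ERF9, 4 kept AT5G51190 and 0 kept ERF104, with highest adjusted p of 0.102, 0.102 and 0.169, each without shoot water replicate 1. ERF9 was lost without shoot water replicates 1 or 2, shoot PEG replicate 3, root water replicate 2 or root PEG replicate 2, and AT5G51190 was kept without shoot PEG replicate 1, root water replicate 1 or root PEG replicates 1 or 3. Without root water replicate 2 the adjusted p was 0.0592, 0.0784 and 0.118. Of 18 members 7 rose and 4 fell in shoot, 0 of the 16 tested in root were called, and the median organ difference was -0.61.

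NAC factors of the stress response rose in shoot at 6 of 7 tested members, and 3 had an organ difference. NAC032 stood at 8.89, 11.6 and 19.0 CPM in shoot water and 91.1, 105 and 195 in shoot PEG. In root NAC032 stood at 50.5, 99.9 and 59.5 in water and 57.0, 106 and 133 in PEG, with overlap (log2 -2.78, SE 0.49, adjusted p = 0.00328; -2.46 without root water replicate 2). ATAF1, a close relative and an early drought-induced factor, had 76.6, 77.0 and 119.7 in shoot water and 918, 858 and 1274 in shoot PEG.

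ATAF1 in root had 144, 234 and 151 in water and 224, 560.4 and 639 in PEG, where replicate 1 stayed below water replicate 2 (log2 -2.05, SE 0.44, adjusted p = 0.0161). The ATAF1 call was lost without shoot water replicate 1 (adjusted p = 0.0697). RD26, the NAC factor of the ABA response, rose in both organs, by log2 3.87 in shoot and 2.61 in root, and its organ difference was not called (95% interval -2.35 to -0.31, adjusted p = 0.178). NAC062, a membrane-tethered factor, fell in shoot from 16.1, 10.2 and 8.29 to 1.31, 3.14 and 2.64 and had 3.98, 3.89 and 2.13 in root water and 6.82, 17.7 and 2.16 in root PEG. Root PEG replicate 2 was the highest root library (log2 3.52, SE 0.90, adjusted p = 0.0497). Without that library the adjusted p was 0.205, and of the 12 leave-one-out fits 1 kept the call, the one without root PEG replicate 3. The median organ difference over the 7 was -1.33, and -0.86 without shoot PEG replicate 3 and -0.78 without root PEG replicate 1. Of the 3 calls, 1 was left with library totals, with the 12 libraries alone or without shoot water replicate 1.

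The zinc finger repressor ZAT6, a stress-induced factor, had 38.9, 32.7 and 46.6 CPM in shoot water, 123, 124 and 133 in shoot PEG, 215, 253 and 146 in root water and 159, 155 and 189 in root PEG. Its shoot groups lay apart and its root groups overlapped (log2 -1.96, SE 0.42, adjusted p = 0.015). The call was lost without shoot water replicate 1, shoot water replicate 2 or root PEG replicate 2, with a highest adjusted p of 0.0704. The other 10 zinc finger genes tested were not called. AIF1, a basic helix-loop-helix protein that restrains brassinosteroid growth responses, rose in shoot from 47.4 ± 12.1 to 217 ± 55.2 and stood at 22.5 ± 3.41 and 20.9 ± 2.69 in root (log2 -2.30, SE 0.36, adjusted p = 0.000928).

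**Figure D2:**
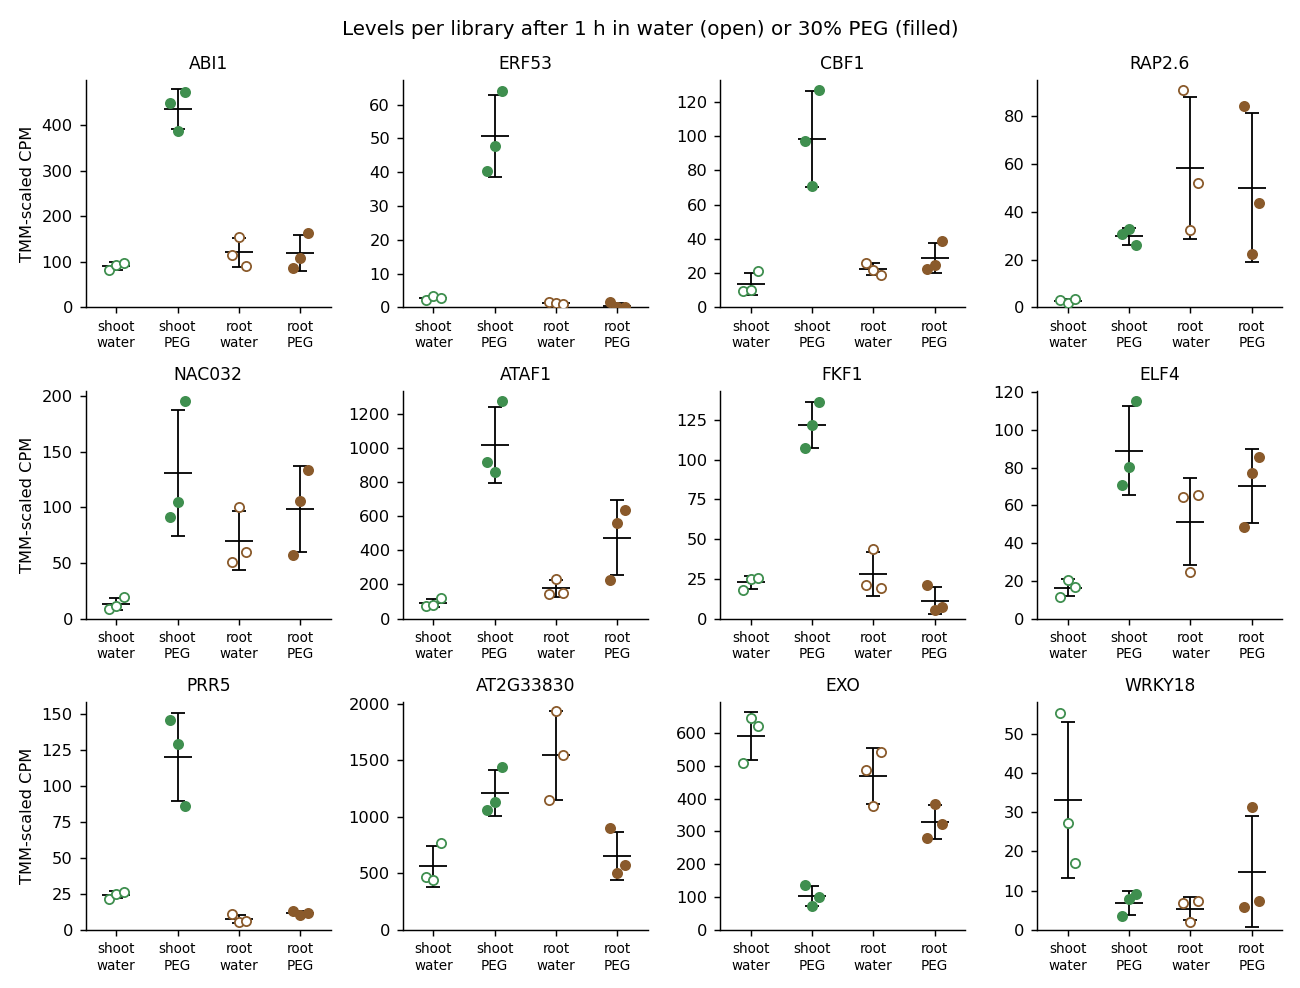
TMM-scaled CPM per library of 12 genes, on linear axes that start at 0, with shoot in green, root in brown, water as open and PEG as filled circles. The bars give the mean and SD of 3 libraries. ABI1, ERF53 and FKF1 rise in shoot PEG above all other libraries, EXO falls in shoot PEG, and WRKY18 in root rests on replicate 2 of PEG.

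Clock genes of the evening had a median organ difference of -1.47. Of 9 evening genes tested, 5 were called with the lower change in root, 4 rose in shoot and 0 were called in root. The count of 5 was 1 with library totals, 1 with a block by seedling pool, 2 with the 12 libraries alone and 2 without shoot water replicate 1. It was 3 without shoot water replicate 2 or 3, any 1 shoot PEG library or root PEG replicate 2, while the median ran from -1.01 to -1.58 over all these settings. FKF1, a blue-light receptor that targets flowering repressors for breakdown, had 17.8, 25.2 and 25.3 CPM in shoot water and 107, 122 and 137 in shoot PEG. In root FKF1 had 20.9, 44.1 and 19.1 in water and 21.4, 5.60 and 7.07 in PEG. All shoot PEG libraries were above all others, and in root the PEG replicates 2 and 3 lay below every water library while replicate 1 did not (log2 -3.69, SE 0.56, adjusted p = 0.000877; -3.23 without root water replicate 2).

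ELF4, of the evening complex that represses growth and morning genes, had 11.4, 20.4 and 17.0 in shoot water and 71.0, 80.6 and 116 in shoot PEG. In root ELF4 had 64.2, 24.7 and 65.4 in water and 48.3, 77.1 and 85.6 in PEG, with root water replicate 2 far below the other water libraries (log2 -2.03, SE 0.42, adjusted p = 0.012). The ELF4 call was lost without shoot water replicate 1 (adjusted p = 0.0762) or shoot PEG replicate 3. Without root water replicate 2 the ELF4 difference was -2.36. PCL1 (LUX), the DNA-binding member of the same complex, stood at 74.9 ± 17.9 and 204 ± 38.6 in shoot and at 69.99 ± 3.42 and 68.7 ± 1.87 in root (log2 -1.47, SE 0.29, adjusted p = 0.00926). PRR5, a clock repressor, went from 21.6, 24.5 and 26.5 to 146, 129 and 86.1 in shoot and from 10.7, 5.19 and 6.38 to 13.3, 10.3 and 11.4 in root (log2 -1.74, SE 0.41, adjusted p = 0.0299). BOA, a relative of PCL1, had 2.11 ± 1.10 and 5.42 ± 0.294 in shoot and 15.2 ± 3.59 and 7.81 ± 1.91 in root (log2 -2.30, SE 0.57, adjusted p = 0.0436). PRR5 was kept in 5 and BOA in 3 of the 12 leave-one-out fits, with highest adjusted p of 0.168 and 0.194. The fits that kept PRR5 were those without shoot PEG replicate 3, root water replicates 2 or 3 or root PEG replicates 1 or 3, and the fits that kept BOA those without root water replicate 1 or root PEG replicates 1 or 3.

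The other 4 evening genes were not called. GI gave -0.76 (95% interval -1.40 to -0.11), ZTL -0.97 (-1.63 to -0.31), TOC1 -0.58 (-1.43 to 0.26) and ELF3 -0.04 (-1.17 to 1.09). Of a list of morning clock genes and of clock outputs, 7 were tested, and GRP7, an RNA-binding protein of the clock outputs, was called. GRP7 had 1991, 2291 and 2758 CPM in shoot water, 3966, 4501 and 5254 in shoot PEG, 4345, 7115 and 5544 in root water and 3369.7, 3352 and 4071 in root PEG. The shoot groups rose apart and the root groups fell apart (log2 -1.62, SE 0.31, adjusted p = 0.00698), though root alone was not called (log2 -0.65, adjusted p = 0.356). The list of morning and output genes had a median of 0.01, which was -0.71 with the 12 libraries alone, -0.70 without root PEG replicate 3 and 0.57 with no filter.

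Genes induced by darkness and low sugar were called at 3 of 10 members, with a median of -1.25. AT2G33830 (DRM2), of the dormancy-associated family, stood at 469, 445 and 769 CPM in shoot water and 1059.5, 1134 and 1443 in shoot PEG. In root it stood at 1149, 1939 and 1546 in water and 899.6, 499 and 569.8 in PEG. Neither the shoot groups, where PEG was higher, nor the root groups, where PEG was lower, overlapped (log2 -2.34, SE 0.41, adjusted p = 0.00298; -2.14 without root water replicate 2). Its relative DYL1 (DRM1) had 183 ± 42.6 and 491 ± 60.2 in shoot and 354 ± 93.1 and 259 ± 63.0 in root (log2 -1.87, SE 0.34, adjusted p = 0.00366). AKINBETA1, a subunit of the SnRK1 energy kinase, was called at -1.52 (adjusted p = 0.0443), but in 3 of the 12 leave-one-out fits only, those without shoot PEG replicate 3, root water replicate 3 or root PEG replicate 1, and at -1.16 with adjusted p = 0.137 without root water replicate 2.

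Growth and wall genes went both ways. EXO, a protein of brassinosteroid-promoted growth, had 509, 646 and 622 CPM in shoot water and 136, 73.6 and 98.9 in shoot PEG. In root EXO had 489, 376 and 543 in water and 281, 384 and 321 in PEG. The fall in shoot was far larger than the spread of the replicates, and the root groups overlapped at 1 library of each (log2 2.02, SE 0.34, adjusted p = 0.00225; 1.89 without root water replicate 2). EXO was the only gene with the higher change in root that was called in all 12 leave-one-out fits and all 8 alternative settings. Its relative EXL4 was called the other way, with 99.0, 125 and 132 in shoot water, 254, 239 and 186 in shoot PEG, 445, 779 and 504 in root water and 318, 172 and 213 in root PEG, no groups of an organ overlapping (log2 -2.23, SE 0.38, adjusted p = 0.00226). EXPA1, an expansin that loosens walls, rose in shoot from 158 ± 29.1 to 357 ± 52.6 and stood at 33.4 ± 15 and 25.2 ± 3.25 in root (log2 -1.57, SE 0.35, adjusted p = 0.0255), a call absent without root water replicate 2 (log2 -1.20, adjusted p = 0.0784) and kept in 7 of the 12 leave-one-out fits. The EXPA1 call was lost without shoot water replicates 1 or 2, shoot PEG replicate 3, root water replicate 2 or root PEG replicate 2. The median over 16 expansin and EXO genes was -0.60, and -0.40 without shoot water replicate 1 and -0.09 without root water replicate 2.

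In sulfur metabolism, SERAT2;1, a serine acetyltransferase of cysteine synthesis, shared the lowest adjusted p of the comparison with AT5G14730, a gene of unknown function. SERAT2;1 had 102, 107 and 119 CPM in shoot water, 427, 364 and 479.9 in shoot PEG, 269, 269 and 226 in root water and 224, 204 and 224 in root PEG. Replicates lay close together in every group, and root PEG lay just below root water (log2 -2.18, SE 0.26, adjusted p = 0.000108). AT5G14730 had 16.4 ± 5.48 and 75.7 ± 25.7 in shoot and 108 ± 24 and 59.3 ± 6.96 in root (log2 -3.05, SE 0.37, adjusted p = 0.000108). Of the sulfur deficiency genes, 9 of 10 tested in shoot rose, and 1 of 9 tested in root. Among the 11 tested for the organ difference 0 were called, with a median of -1.09 (-0.73 without shoot water replicate 2). LSU2, which is induced by low sulfur, rose in both organs (log2 4.05 and 3.74), and its organ difference had a 95% interval of -2.04 to 1.30.

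The remaining genes named for their size with the lower change in root were of varied or unknown function. AT2G39980, of an acyltransferase family, had 38.1, 51.1 and 50.6 CPM in shoot water, 229, 147 and 171 in shoot PEG, 36.4, 41.5 and 25 in root water and 17.0, 10.7 and 7.07 in root PEG, rising in shoot and lower in all root PEG libraries (log2 -3.55, SE 0.48, adjusted p = 0.000351). AT4G25433, of a LysM domain family, gave -4.20 (adjusted p = 0.00567) from 5 and 46 counts in shoot and 79 and 39 in root. AT1G51090, of a metal transport family, gave -2.84 (adjusted p = 0.000877), and AT1G68500, of unknown function, -2.98 (0.011, or 0.0563 without shoot water replicate 1). AT1G73810, of a glycosyltransferase family, gave -3.18 (0.0127, or 0.0622 without shoot water replicate 1). Of the 120 genes, 42 stayed called in all 12 leave-one-out fits, 79 without root water replicate 2, and 31 in all of these fits and all 8 alternative settings. Of the 120, 26 overlap another annotated gene, among them ABI1, FKF1, PCL1, BOA, ATAF1, AT2G39980, SERAT2;1, AT3G05640 and AT2G44130. The strand used in counting is not stated, so reads of such pairs cannot be told apart.

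Genes with the higher change in root had fewer counts, a median of 468 over the 12 libraries against 2154 for those with the lower change. WRKY18, a defence regulator, had 55.4, 27.2 and 17.0 CPM in shoot water and 3.49, 7.85 and 9.23 in shoot PEG. In root WRKY18 had 6.72, 1.95 and 7.44 in water and 5.89, 31.3 and 7.46 in PEG, of which replicate 2 alone was high (log2 3.59, SE 0.87, adjusted p = 0.0404). MYB77, a factor of auxin responses in root branching, had 90.6, 87.2 and 86.1 in shoot water, 45.7, 29.3 and 58.4 in shoot PEG, 40.1, 18.2 and 32.4 in root water and 32.5, 71.9 and 89.1 in root PEG.

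MYB77 fell in every shoot PEG library, and root PEG replicate 1 lay within the root water range (log2 2.06, SE 0.45, adjusted p = 0.0203). maMYB, a membrane-anchored factor linked to root hair growth, had 15.5 ± 4.71 and 4.99 ± 2.10 in shoot and 3.48 ± 1.33 and 10.1 ± 4.63 in root (log2 3.05, SE 0.65, adjusted p = 0.015). TPR10, an ankyrin repeat protein, gave 2.68 (adjusted p = 0.0143) and AT3G10040 (HRA1), a repressor of the low-oxygen response, 2.25 (0.0428). ASP2, an aspartate aminotransferase, gave 2.90 (0.0296), with 15.8, 41.1 and 7.46 CPM in root PEG, highest in replicate 2. AT1G32580, a plastid protein gene, gave 5.17 (0.0474) from 3.10, 24.3 and 1.77 in root PEG, again highest in replicate 2. Without that library it was 3.28 (adjusted p = 0.227), and none of the 7 alternative settings that gave AT1G32580 a value called it (highest adjusted p = 0.153). AT3G19000, of an oxygenase family, gave 2.52 (0.0424) and NIH, a helicase, 3.95 (0.0474). NIH and TPR10 overlap a neighbour annotated on the same strand, so their counts are uncertain.

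Of the 26 genes, 1 stayed called in all 12 leave-one-out fits, EXO. Of the 12 leave-one-out fits, 9 kept MYB77, 10 maMYB and 11 TPR10, while 3 kept WRKY18, 5 ASP2, 4 AT1G32580, 4 AT3G19000, 4 NIH and 2 AT3G10040. WRKY18 was kept without shoot water replicate 3 or root PEG replicates 1 or 3, ASP2 without shoot water replicates 2 or 3, shoot PEG replicate 2 or root PEG replicates 1 or 3 and AT1G32580 without shoot water replicates 2 or 3 or root PEG replicates 1 or 3. AT3G19000 was kept without shoot PEG replicate 2, root water replicate 1 or root PEG replicates 1 or 3, NIH without shoot water replicate 3, root water replicate 1 or root PEG replicates 1 or 3 and AT3G10040 without shoot water replicate 2 or shoot PEG replicate 1. The highest adjusted p was 0.175 for WRKY18, 0.169 for ASP2 and 0.295 for AT1G32580, each without shoot water replicate 1. MYB77 was not called without shoot water replicate 1, shoot PEG replicate 2 or root PEG replicate 2 (highest adjusted p = 0.0697), maMYB without shoot water replicate 1 or root PEG replicate 2 (0.0733), and TPR10 without shoot water replicate 3 (0.0546). Without root water replicate 2, 8 of the 26 were called, and without root PEG replicate 2, 5 of the 26. Low-oxygen genes as a list had a median organ difference of 1.77 over 11 tested members, with 1 called. In root alone 0 were called, and 1 of the 9 tested in shoot fell. The median organ difference of the list was 1.07 with voom and 1.14 without root PEG replicate 2.

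Of the 120 genes, 2 fell in root without a call in shoot. CAF1b, a subunit of a deadenylase that shortens mRNA tails, fell in root from 222, 394 and 228 to 53.9, 64.4 and 65.9 CPM and had 78.8 ± 9.13 and 60.4 ± 16.3 in shoot (log2 -1.80, SE 0.45, adjusted p = 0.0432). All root PEG libraries lay below all root water libraries, of which replicate 2 was the highest, and without it the organ difference was -1.48 (adjusted p = 0.125). AT3G07195, of the RIN4 family, fell in root from 47.6, 50.6 and 52.1 to 22.3, 17.3 and 17.5 and stood at 44.4 ± 6.69 and 45.4 ± 4.94 in shoot (log2 -1.43, SE 0.30, adjusted p = 0.0127). The calls were lost without shoot water replicates 1, 2 or 3, shoot PEG replicates 1 or 3, root water replicate 2 or root PEG replicates 1 or 2 for CAF1b, and without shoot water replicates 1 or 3, shoot PEG replicate 3 or root PEG replicate 2 for AT3G07195. AT2G44130, a kelch repeat protein, rose in both organs, from 6.77, 7.49 and 10.3 to 91.1, 81.1 and 139.7 in shoot and from 25.6, 27.9 and 22.9 to 62.9, 96.7 and 88.9 in root, with the larger rise in shoot (log2 -1.95, SE 0.37, adjusted p = 0.00708).

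Genes called in both organs by the separate organ tests changed the same way. There were 13, of which 12 rose and 1, AT5G48430, fell, among 8163 genes tested in both. Besides RD26, LSU2 and AT2G44130 the risen genes include MYB4, a repressor of phenylpropanoid synthesis, and CIPK5, a calcium-sensor kinase. MYB4 rose by log2 1.97 in shoot and 2.81 in root, with an organ difference of 0.75 (95% interval -0.48 to 1.98), and CIPK5 rose by log2 1.19 and 1.39, with an interval of -0.84 to 1.05 for its organ difference. AT2G44130 was the only one of the 13 with a called organ difference. All 13 rest on the root calls, which numbered 3 without root water replicate 2.

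Over all 40 gene lists, 478 of 569 members were in the table, 427 were tested, 7 were called with the higher and 21 with the lower change in root, and 13 lists had a called member. Over all genes tested the shares called were 0.237% and 1.09%. Photosynthesis genes had 0 calls of 36 (median -0.48), PIP aquaporins 0 of 13 (-0.31) and TIP aquaporins, vacuolar water channels, 0 of 6 (-1.16). Without root water replicate 2 the photosynthesis median was -0.17, the PIP median -0.07 and the TIP median -0.73. Lipoxygenases and jasmonate enzymes had 0 of 15 called (-0.14). With library totals the medians of the photosynthesis, PIP and lipoxygenase lists were above 0, at 0.06, 0.20 and 0.34, below the median of all genes in that scaling. LOX3, a 13-lipoxygenase, had an organ difference of 0.88 (95% interval -0.37 to 2.12). LOX2, of wound-induced jasmonate synthesis, had 806 counts in shoot water, 1295 in shoot PEG and 0 in the 6 root libraries, so no difference could be formed. Root hair genes fell in root at 4 of 12 tested members, EXPA7, XTH14, PRP3 and EXPA18, against 0.308% of all genes tested in root. Most root hair genes had too few counts in shoot for a shoot test, and 0 organ differences were called among them.

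**Figure D3:**
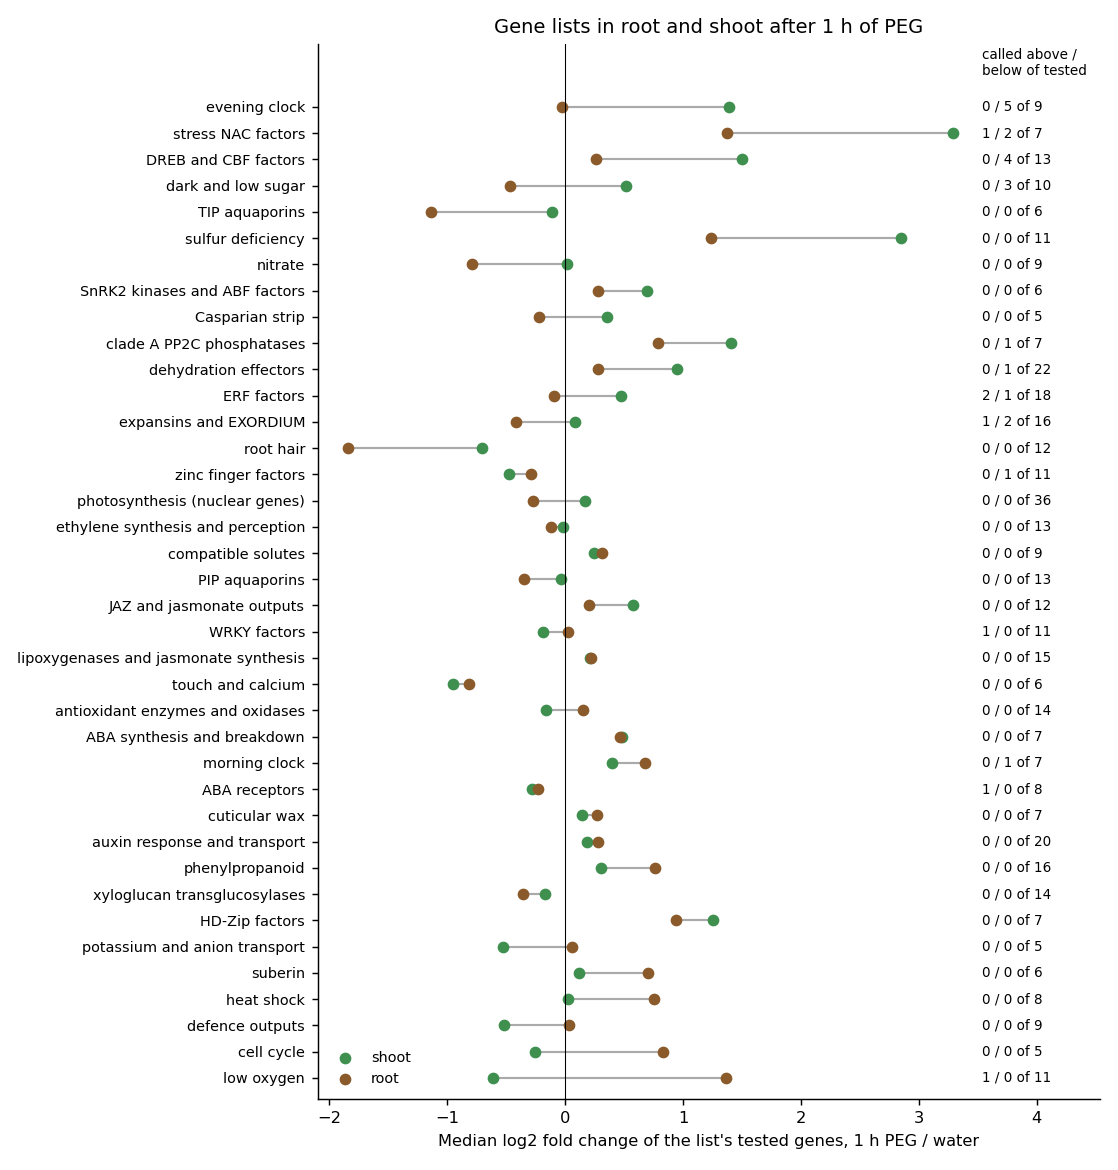
Median log2 change after 1 h of PEG in shoot (green) and root (brown) for each gene list with at least 5 tested members, ordered by the median organ difference. Numbers at the right give the genes called above and below among those tested. Evening clock genes stand at the top with 0 above and 5 below of 9, and low-oxygen genes at the bottom with 1 above and 0 below of 11.

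At the later PEG times the same difference can be formed against the same water libraries, so the values are not independent of those at 1 h. No water library of 2 or 3 h was made, so longer PEG and the later time of sampling cannot be told apart. For ABI1 it was -2.27, -2.18 and -2.85 at 1, 2 and 3 h. For LTI78 it was -1.50, -2.68 and -4.20, and for ELF4 -2.03, -3.15 and -4.21. SERAT2;1 gave -2.18, -1.26 and -0.86, and AT5G14730 -3.05, -1.62 and -0.81. WRKY18 gave 3.59, 0.16 and 1.50, NAC062 3.52, 0.51 and 1.53, and EXO 2.02, 1.97 and 2.47. Changes between times were not tested. Among the 120 genes the median was -1.86 at 1 h, -1.56 at 2 h and -1.93 at 3 h, and among the 26 it was 2.38, 1.61 and 1.70. Both sets were chosen on their values at 1 h.

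**Figure D4:**
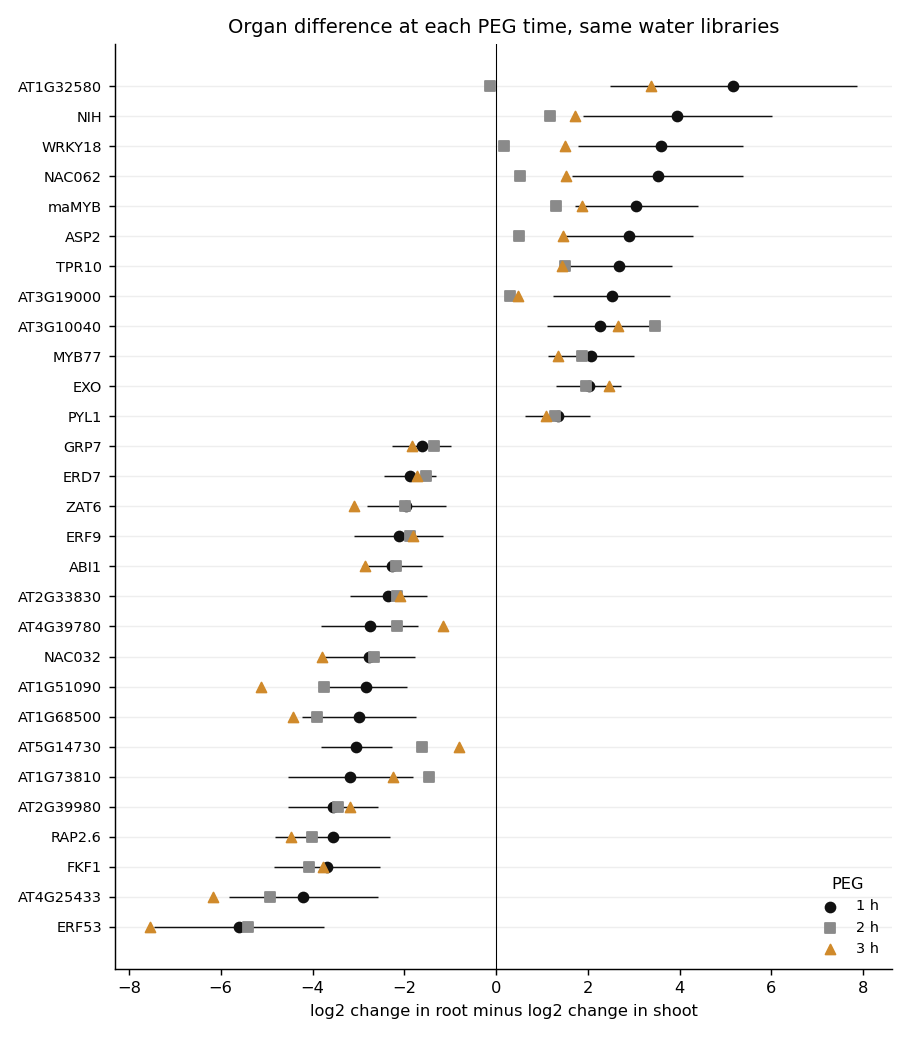
Organ difference (log2 change in root minus log2 change in shoot) of the 29 named genes with a call at 1 h, at 1 h (circles, with 95% intervals), 2 h (squares) and 3 h (triangles). All 3 times are set against the water libraries of 1 h. EXO and ABI1 stand at like values at the 3 times, whereas AT1G32580, WRKY18 and NAC062 stand nearer to 0 at 2 h.

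**Figure D5:**
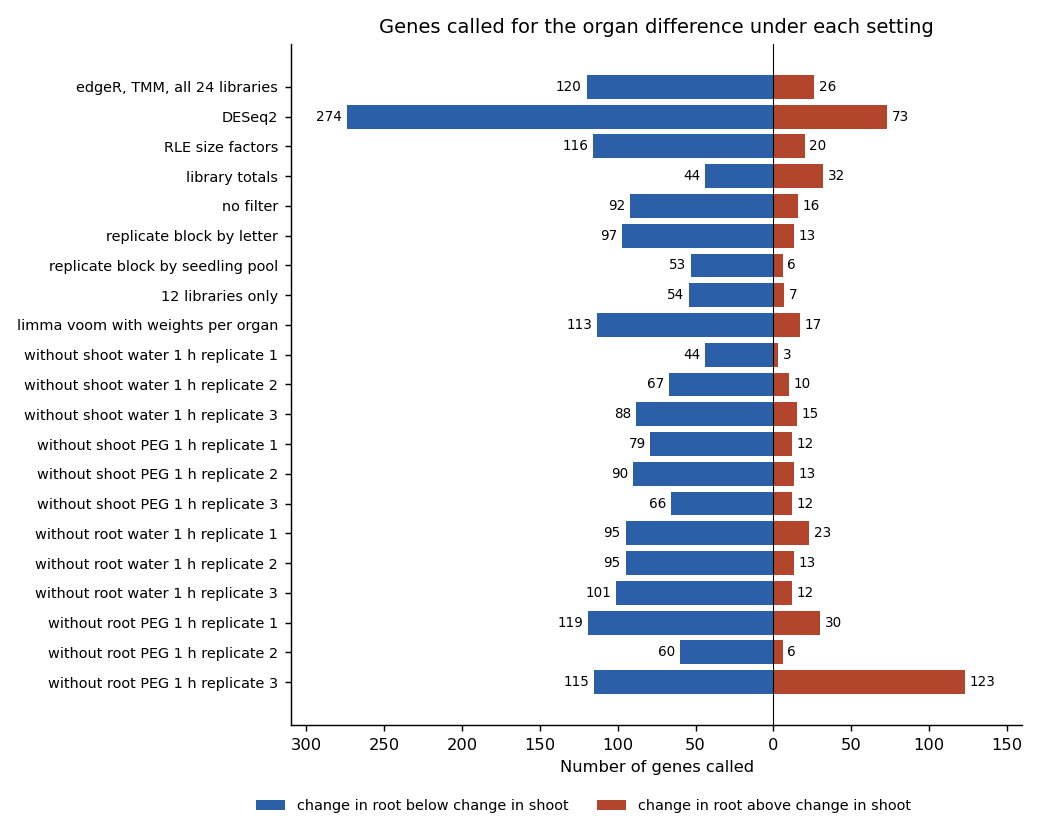
Number of genes called for the organ difference under each setting, with the lower change in root to the left and the higher to the right. The counts run from 44 to 274 on the left and from 3 to 123 on the right, against 120 and 26 in the fit used here.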

How the data were processed

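The deposited table gives raw counts of reads per gene for MARS-seq libraries, a method that tags transcript 3′ ends, and these whole-number counts, made by the authors, were the input of every test. Per the submitters' processing notes, bcl2fastq, cutadapt, STAR 2.4.2a, HTSeq and DESeq2 were used, in no stated order. Details of the build, annotation, counting strand and molecular identifiers were not given in the sources used here, so no positions are printed. The 48 columns of normalized and transformed values per library were not used. Gene names and overlaps came from RefSeq's TAIR10.1 annotation, which matched 14457 of 14557 locus codes, the other 100 being organelle codes.

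Analyses used R 4.3.3, DESeq2 1.42.0, edgeR 4.0.16 and limma 3.58.1. The filter was edgeR's filterByExpr, counts were TMM-scaled, and edgeR's quasi-likelihood test was applied with robust dispersion. The organ difference was fitted on all 24 libraries with 8 group means, so its spread is shared by root and shoot. PEG against water was fitted on the 12 libraries of an organ. All tests were two-sided, with genes called where the Benjamini-Hochberg adjusted p, over all genes of a comparison, was under 0.05. Levels per library are CPM of the joint fit. Precision is given as SD over 3 replicates, as SE or as a 95% interval of the log2 difference, and at these depths genes with a few counts per group are loosely measured. Replicate pairs differed by more than counting noise (chi-square per degree of freedom 4.71 to 30.6), so none were duplicates.

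Named genes are the 10 highest and 10 lowest organ differences among called genes whose higher group, water or PEG, averaged at least 10 counts in each organ, the called member with the smallest adjusted p of each list, and 8 fixed genes for organ, ABA and lipoxygenase checks. Other genes were picked after their values were seen. The comparison and the 40 lists were chosen with earlier results of these data known. In data simulated with these means and depths, a true log2 organ difference of 1 was called in 1% of changed genes and of 2 in 56%. There were 5 false calls among the unchanged genes of the 10811 tested. The changed genes were drawn only from those above a minimum mean count in root and in shoot, with a common spread per organ. The shares called therefore do not cover genes with few counts. Alternatives were DESeq2, RLE size factors, library totals, no filter, replicate blocks, the 12 libraries alone, voom with organ weights, and leaving out each library.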

Additional observations from a re-analysis of the deposited data

Results flagged for a closer look

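The 29 genes below were singled out because their change after 1 h of PEG differed between root and shoot by the test of that difference itself. Values are log2 change in root minus log2 change in shoot. With the higher change in root they were AT1G32580 (5.17), NIH (3.95), WRKY18 (3.59), NAC062 (3.52), maMYB (3.05), ASP2 (2.90), TPR10 (2.68), AT3G19000 (2.52), AT3G10040 (2.25), MYB77 (2.06), EXO (2.02) and PYL1 (1.34). With the lower change in root they were ERF53 (-5.60), AT4G25433 (-4.20), FKF1 (-3.69), RAP2.6 (-3.56), AT2G39980 (-3.55), AT1G73810 (-3.18), AT5G14730 (-3.05), AT1G68500 (-2.98), AT1G51090 (-2.84), NAC032 (-2.78), AT4G39780 (-2.75), AT2G33830 (-2.34), ABI1 (-2.27), ERF9 (-2.12), ZAT6 (-1.96), ERD7 (-1.88) and GRP7 (-1.62). The weighing of causes was not undertaken. AT1G32580, NIH, WRKY18, NAC062, maMYB, ASP2, TPR10 and AT3G19000 each had their highest root level in PEG replicate 2.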

How the results depend on the processing

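No called value changed sign in any setting run. For the organ difference, counts with the higher and the lower change in root, 26 and 120 here, were 73 and 274 with DESeq2, 32 and 44 with library totals, 16 and 92 with no filter, 7 and 54 with the 12 libraries alone, and 17 and 113 with voom. With library totals the median of all genes moved to 0.518 and the share of calls with the higher change in root from 17.8 to 42.1%. Of the calls made here, 134 were also called by DESeq2 and 59 with library totals. Leaving out 1 library gave 3 to 123 higher and 44 to 119 lower. The lowest counts came without shoot water replicate 1, and 123 higher without root PEG replicate 3. For root alone, 16 higher and 30 lower here, DESeq2 gave 78 and 130, library totals 16 and 17, and a fit of all 24 libraries 104 and 122, with 0 to 26 and 1 to 19 when 1 library was left out. For shoot alone, 663 and 475 here, all 24 libraries gave 409 and 79, and leaving out 1 library 451 to 703 and 155 to 635. The cause of these moves was not tested. Of single named genes' values, 597 kept their side of the threshold, 136 lost the call and 3 gained it.

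Replicate letters recur in every group. Deviations of same-lettered libraries correlated between -0.187 and 0.166 for root with shoot, and between -0.292 and 0.363 for water with PEG. With 3 replicates per group, these values cannot settle whether root and shoot of 1 letter came from 1 seedling pool. The fit used here did not pair libraries by letter, so its p-values leave out any such pairing. With a replicate block by letter 13 and 97 genes were called for the organ difference, and 553 and 313 in shoot. With a block by seedling pool, root and shoot of 1 letter and treatment, the organ difference gave 6 and 53. Depth limits genes with few counts, and 7 of the 120 and 5 of the 26 missed the floor of 10 counts.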
